A study of Mus musculus with 9 samples.

Results

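DHX9 is an RNA and DNA helicase, and the genes described here encode 8 of its protein partners or of the cofactors that act with it on RNA and DNA: Ilf2, Nono, Sfpq, Smn1, Wrn, Parp1, Top1 and Brca1. They were chosen by name, with earlier results of these data known, and matched to the arrays by Entrez Gene number. All 8 had a probe set among the 24011 genes measured, and all 8 passed the filter on low levels (a mean log2 level of at least 5.28, the 30th percentile of all genes), which left 16808 genes to test. Total RNA came from the large intestine of C57BL/6 mice and was measured on the Mouse Gene 2.0 ST platform of Affymetrix with 3 arrays in each group. The knockdown groups carried a short hairpin RNA against Dhx9, either DHX9-1271 (DHX9.1271/rtTA mice) or DHX9-837 (DHX9.837/rtTA mice), and the control group carried one against firefly luciferase (FLuc.1309/rtTA mice), a gene that mice lack. Every group, the control included, also carried rtTA, the doxycycline-dependent activator, and drank doxycycline at 1 mg/ml with 5% sucrose for 14 days from 4 weeks of age. The labels do not name the promoter that drives rtTA, the number of founder lines or whether each array is a separate animal, so each p-value rests on a spread between arrays that may be technical.

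DHX9 unwinds RNA duplexes, DNA and R-loops, the RNA:DNA hybrids that form when a transcript re-anneals to its template. Most of its known partners are abundant nuclear proteins. Some bind RNA (the NF45 subunit Ilf2, the paraspeckle proteins Nono and Sfpq, and the survival motor neuron protein Smn1, which assembles spliceosomal particles), and others act on DNA (the RecQ helicase Wrn, the poly(ADP-ribose) polymerase Parp1, the topoisomerase Top1 and the repair protein Brca1). In the crypts of the gut, where epithelial cells divide, these DNA-acting proteins take part in replication and repair.

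Dhx9 was lower in all 6 knockdown arrays than in all 3 control arrays. Its mean log2 level was 8.22 ± 0.044 with DHX9-1271, 8.2 ± 0.017 with DHX9-837 and 9.24 ± 0.072 in control (SD, n = 3 arrays each). The knockdown groups therefore kept 49.6% and 48.8% of the control signal, with adjusted p = 4.91e-05 and adjusted p = 2.05e-05 by limma. The median log2 level of the 9 arrays lay between 6.24 and 6.28, and correlations across genes within a group were 0.989 to 0.996. Large intestine markers were present: 10 of 11 measured epithelial markers passed the level filter and only Hoxd13 lay under it. The list's mean log2 level was 10.76 to 10.78 with DHX9-1271, 10.62 to 10.69 with DHX9-837 and 10.74 to 10.76 in control. All 10 small intestine markers passed the filter as well. Their list means were 7.54 to 8.32 with DHX9-1271, 7.86 to 9.46 with DHX9-837 and 7.83 to 8.92 in control. These means overlapped between the groups and spread widely between the arrays of each group. Of the 10 tested epithelial markers, 1 fell over both hairpins against control and 0 rose (limma, adjusted p under 0.05). Of the 10 small intestine markers, 2 fell and 0 rose. Among all genes 5.33% fell and 8.13% rose in that comparison. With DHX9-837 against control 2 epithelial markers fell and 1 rose, beside 6.91% of all genes down and 8.67% up.

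Across both hairpins against control, Smn1 and Ilf2 rose, Wrn fell, and Nono, Sfpq, Parp1, Top1 and Brca1 were not called. A gene counts as called where limma's p, adjusted over all 16808 genes, was under 0.05. These 3 calls of 8, of which 2 were up and 1 down, stand beside 13.5% of all genes called in that comparison, 8.13% up and 5.33% down. The count was 1 to 2 of 8 when an array was left out. Without control replicate 2 it was 1, the gene left being Smn1. Under other changes of the processing it was 2 to 3. The median log2 fold change of the 8 genes was 0.14, against 0.0011 over all genes tested. Changes were small: Smn1 reached 1.27-fold, and Dhx9 itself changed by more than any of the 8.

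With DHX9-837 alone against control, 2 of the 8 were called, Smn1 and Ilf2, both up, beside 15.6% of all genes (8.67% up and 6.91% down). The median log2 fold change of the 8 was 0.17 there, against -0.0012 over all genes. With DHX9-1271 alone 0 of the 8 were called by limma, beside 4.41% of all genes, and the median was 0.10, against 0.0057. At an unadjusted p under 0.05 that comparison held 3 of the 8 (Ilf2, Wrn and Smn1) and 20.5% of all genes. Both comparisons use the same 3 control arrays. The share of all genes called moved when single arrays were left out. For both hairpins it was 8.11% without control replicate 1 and 8.69% without DHX9-1271 replicate 3. For DHX9-1271 it was 2.03% without control replicate 1, 1.74% without DHX9-1271 replicate 1, 1.21% without replicate 2 and 0.762% without replicate 3.

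**Figure D1:**
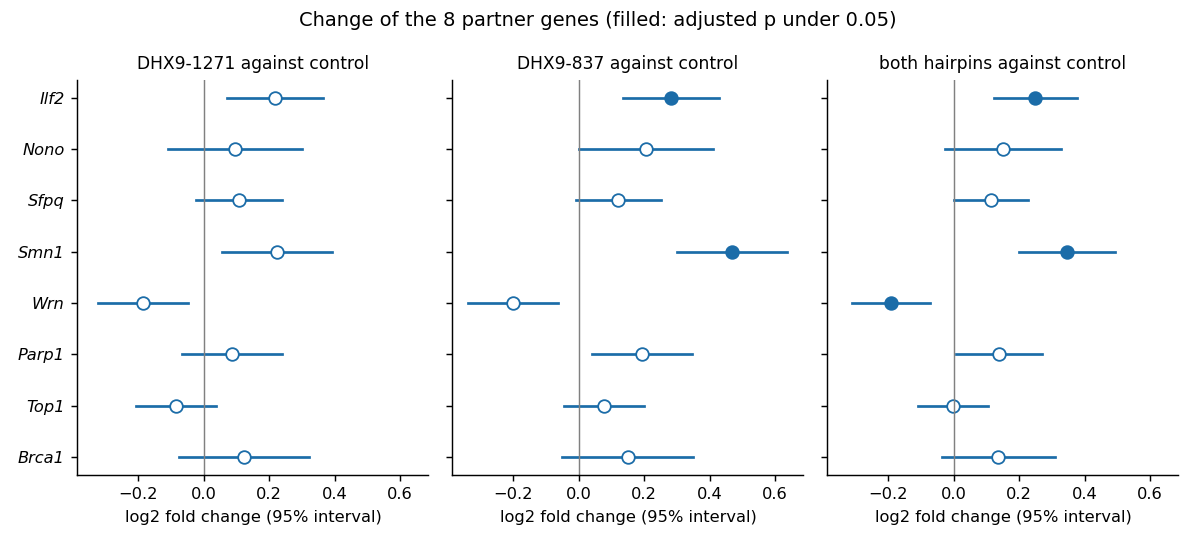
Log2 fold change (x axis) of the 8 partner genes in 3 comparisons, DHX9-1271, DHX9-837 and both hairpins, each against control. Points are limma estimates, bars are 95% intervals and filled points had an adjusted p under 0.05: Smn1 and Ilf2 are filled on the right of 0 with DHX9-837 and both hairpins, and Wrn on the left with both hairpins.

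Ilf2 encodes NF45, a subunit of RNA-binding heterodimers that associate with DHX9 in human cells. Its log2 level was 8.16, 8.19 and 8.18 with DHX9-1271, 8.19, 8.16 and 8.36 with DHX9-837, and 7.92, 7.90 and 8.04 in control. Every knockdown array lay above every control array, with a gap of 0.11 between the nearest, and the DHX9-1271 arrays lay close together. Against control Ilf2 rose 1.19-fold over both hairpins, a log2 fold change of 0.25 (SE 0.056, 95% interval 0.12 to 0.38, adjusted p = 0.0207). It rose by 0.28 with DHX9-837 (SE 0.064, adjusted p = 0.0198). With DHX9-1271 the log2 fold change was 0.22 and was not called (95% interval 0.071 to 0.36, adjusted p = 0.0998). Of all genes tested, 13% changed at least as much as Ilf2 in the pooled comparison. The pooled call ended without control replicate 1 (log2 fold change 0.23, adjusted p = 0.0746) and without control replicate 2 (0.22, adjusted p = 0.0649). It held without control replicate 3 (0.29, adjusted p = 0.0238).

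Nono and Sfpq encode paired members of the DBHS family, RNA-binding proteins that build paraspeckles and take part in splicing and DNA repair. Nono stood at 8.59, 8.63 and 8.56 with DHX9-1271, 8.63, 8.79 and 8.69 with DHX9-837, and 8.27, 8.61 and 8.61 in control. Control replicate 1 lay apart from the other controls, and the spread of Nono in control (SD 0.193) was the widest of any group among the 8 genes. Its log2 fold change over both hairpins was 0.15 (95% interval -0.028 to 0.33, adjusted p = 0.245), and without control replicate 1 it was 0.038. Sfpq stood at 8.93, 8.98 and 8.98 with DHX9-1271, 8.93, 8.93 and 9.06 with DHX9-837, and 8.78, 8.85 and 8.93 in control. The groups overlapped through the highest control array. Sfpq had a log2 fold change of 0.11 (95% interval 0.0011 to 0.23, adjusted p = 0.169), so neither paraspeckle gene was called.

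Smn1 changed most of the 8. It encodes the survival motor neuron protein, which loads Sm proteins onto small nuclear RNAs and binds DHX9 in human cells. Its log2 level was 7.95, 8.03 and 8.06 with DHX9-1271, 8.17, 8.24 and 8.38 with DHX9-837, and 7.66, 7.87 and 7.85 in control. No array of a group overlapped another group, and the order was DHX9-837, DHX9-1271, control, from high to low. Smn1 rose by 0.47 with DHX9-837 (SE 0.074, 95% interval 0.30 to 0.64, adjusted p = 0.00389), which is 1.38-fold, and 5.1% of all genes changed at least as much. Over both hairpins it rose by 0.35 (SE 0.064, adjusted p = 0.0094). With DHX9-1271 its log2 fold change of 0.22 was not called (95% interval 0.055 to 0.39, adjusted p = 0.134). The neighbours in this order did not differ beyond the threshold: DHX9-837 minus DHX9-1271 was 0.25 (95% interval 0.079 to 0.42, adjusted p = 0.155).

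The start regions of the 2 genes that rose are shown because both moved up in the same arrays, while the arrays themselves do not measure promoters. RefSeq (GRCm38.p6) gave a start site for 7 of the 8 genes, Wrn not among them, and 2 sites for Smn1, of which the downstream is printed. Each line gives the 250 bases before the start, 5′ to 3′ on the gene's strand. Capitals mark CCAAT boxes (CCAAT) and ETS cores (CCGGAA), searched on both strands, so that they also appear as ATTGG and as TTCCGG.
Ilf2, chr3:90475951-90476200, plus strand: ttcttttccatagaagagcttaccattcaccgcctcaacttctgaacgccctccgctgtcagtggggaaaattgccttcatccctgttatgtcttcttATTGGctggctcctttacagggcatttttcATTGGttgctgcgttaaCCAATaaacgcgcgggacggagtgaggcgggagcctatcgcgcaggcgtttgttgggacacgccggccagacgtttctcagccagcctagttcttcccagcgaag
Smn1, chr13:100124605-100124854, plus strand: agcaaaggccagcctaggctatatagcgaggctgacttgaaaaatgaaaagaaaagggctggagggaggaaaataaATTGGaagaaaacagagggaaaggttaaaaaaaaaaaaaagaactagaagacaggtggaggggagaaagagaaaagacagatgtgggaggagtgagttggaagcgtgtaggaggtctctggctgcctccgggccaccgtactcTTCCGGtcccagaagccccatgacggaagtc
The Ilf2 window held 3 CCAAT boxes and no ETS core, and the printed Smn1 window held 1 of each. The other Smn1 start site held 1 ETS core and no CCAAT box. Nono held 2 CCAAT boxes, Sfpq 4 (of which 2 overlap each other) and Brca1 1 with 1 ETS core, whereas Parp1 and Top1 held none and had 3 GC boxes each (GGGCGG on either strand). A CCAAT box occurred in 33.8% of all 32851 windows of that length, an ETS core in 12% and a GC box in 32.7%. No window of the 8 held TATAAA on either strand, which 12.4% of all windows did. These matches describe the letters only.

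**Figure D2:**
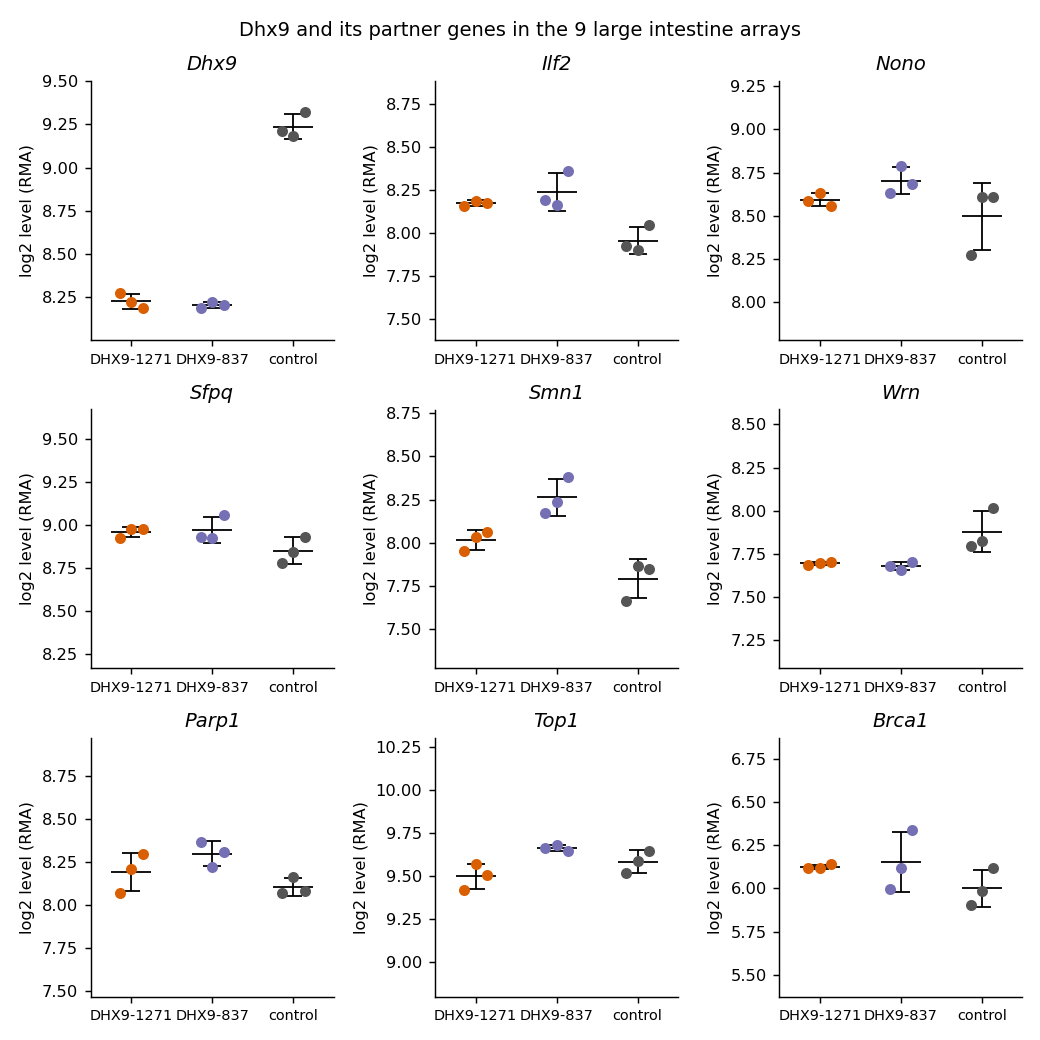
Log2 level (y axis, RMA) of Dhx9 and the 8 partner genes in every array, by group (x axis: DHX9-1271, DHX9-837, control); each panel spans the same log2 range. Points are arrays, bars are the mean and SD of 3 arrays: Smn1 and Ilf2 lie higher and Wrn and Dhx9 lower in all 6 knockdown arrays than in the controls.

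Wrn was the one gene of the 8 that fell over both hairpins. It encodes the helicase and exonuclease lost in Werner syndrome in humans, which unwinds replication forks and unusual DNA structures, and DHX9 binds it in human cells. Its log2 level was 7.68, 7.70 and 7.70 with DHX9-1271, 7.68, 7.66 and 7.70 with DHX9-837, and 7.80, 7.82 and 8.02 in control. All 6 knockdown arrays lay within a narrow band under the controls, and control replicate 3 was highest. Over both hairpins Wrn fell by 0.19 on the log2 scale (SE 0.053; 95% interval -0.31 to -0.073, adjusted p = 0.0435), which left 87.5% of the control signal. The single hairpins were not called: DHX9-1271 gave -0.19 (adjusted p = 0.13), and DHX9-837 gave -0.20 (adjusted p = 0.0573). The call lay close to the threshold and ended in 11 of 15 alternatives, which included 8 of the 9 that left out an array. Without control replicate 3 the log2 fold change was -0.12 (adjusted p = 0.0907).

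**Figure D3:**
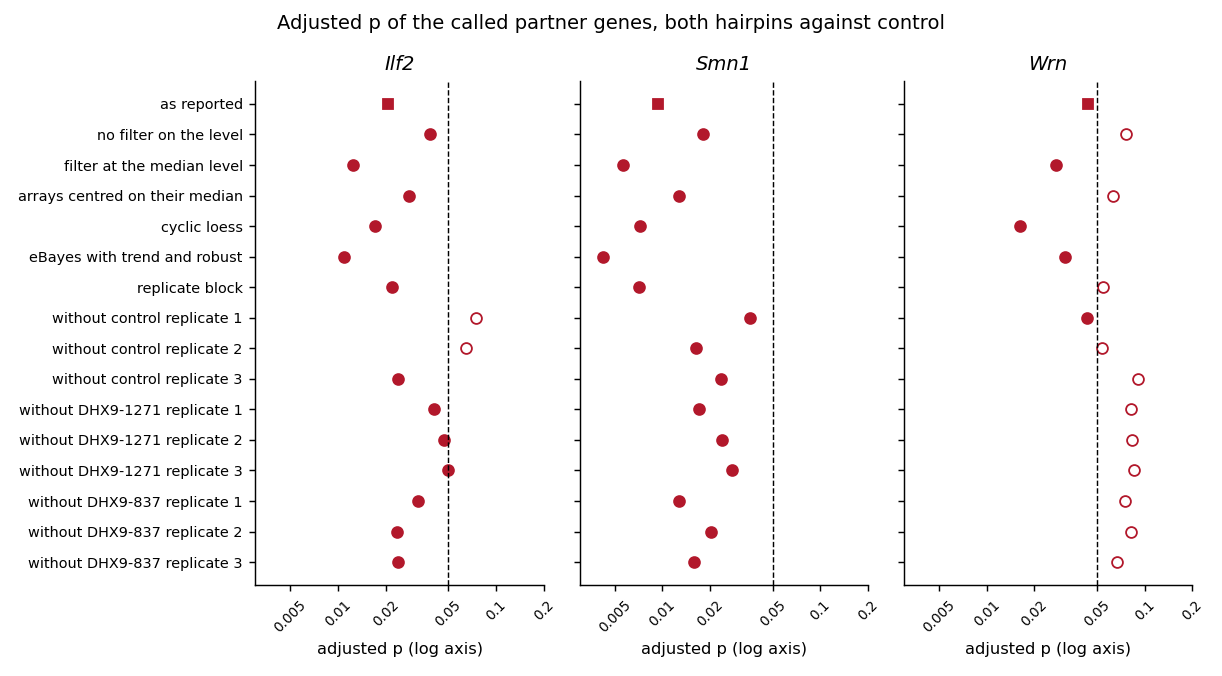
Adjusted p (x axis, log scale) of Ilf2, Smn1 and Wrn in both hairpins against control, as reported (square) and under 15 alternatives (circles, one per row). Filled symbols lie under 0.05 (dashed line): all of Smn1, all of Ilf2 but those without control replicates 1 and 2, and Wrn as reported and in 4 alternatives.

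Parp1, Top1 and Brca1 were not called in any of the 4 comparisons. Parp1 encodes the enzyme that marks DNA breaks with poly(ADP-ribose). It stood at 8.07, 8.21 and 8.29 with DHX9-1271, 8.37, 8.22 and 8.31 with DHX9-837, and 8.07, 8.16 and 8.08 in control. The DHX9-837 arrays lay above every control array and those of DHX9-1271 overlapped both groups. Its log2 fold change was 0.19 with DHX9-837 (95% interval 0.041 to 0.34, adjusted p = 0.0877) and 0.14 over both hairpins (95% interval 0.008 to 0.27, adjusted p = 0.149).

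Top1 encodes the topoisomerase that relaxes the supercoils formed by transcription and so limits R-loops. Its log2 level was 9.42, 9.57 and 9.51 with DHX9-1271, 9.66, 9.68 and 9.64 with DHX9-837, and 9.52, 9.59 and 9.65 in control. The control arrays lay between the hairpins and overlapped both. Over both hairpins its log2 fold change was -0.0033 (95% interval -0.11 to 0.10, adjusted p = 0.974), and 97.7% of all genes changed at least as much. Its single-hairpin values had opposite signs, -0.084 for DHX9-1271 (adjusted p = 0.414) and 0.078 for DHX9-837 (adjusted p = 0.382).

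Brca1 encodes a ubiquitin ligase of homologous recombination that DHX9 links to RNA polymerase II in human cells. It stood at 6.12, 6.12 and 6.14 with DHX9-1271, 6.00, 6.12 and 6.34 with DHX9-837, and 5.90, 5.98 and 6.12 in control. Its groups overlapped, and its 9 arrays held only 6 distinct values, as the median polish step of RMA can leave. Its log2 fold change was 0.14 over both hairpins (95% interval -0.037 to 0.31, adjusted p = 0.277). The interval still allows a rise as large as that of Ilf2.

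An exact two-sided permutation test of the 6 knockdown arrays against the 3 control arrays was run on each of the 8 genes. The exact p was 0.0119 for Ilf2 and for Wrn, the smallest this design allows, 0.0238 for Smn1 and 0.0476 for Sfpq, none of them adjusted. The exact test gave p = 0.0833 for Parp1, p = 0.119 for Nono, p = 0.179 for Brca1 and p = 0.917 for Top1. With 3 arrays against 3 the smallest p is 0.1, so single hairpins were not tested this way. Arrays of both hairpins did not overlap with control in 3 of the 8 genes, beside 17.5% of all genes. With DHX9-1271 that was 3 of 8, beside 25.5%, and with DHX9-837 it was 5 of 8, the same 3 with Nono and Parp1, beside 31.4%.

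The hairpins left nearly equal Dhx9, with a log2 difference, DHX9-837 minus DHX9-1271, of -0.021 (95% interval -0.14 to 0.094, adjusted p = 0.908). Between them 0 of the 8 partner genes were called by limma, beside 1.9% of all genes, and 2 of the 8 (Smn1 and Top1) had an unadjusted p under 0.05, beside 14.3% of all genes. The largest difference was that of Smn1 given above, followed by Top1, 0.16 higher with DHX9-837 (95% interval 0.039 to 0.29, adjusted p = 0.199). Nono (0.11) and Parp1 (0.11) had like differences with intervals that include 0. Ilf2, Sfpq, Wrn and Brca1 differed by 0.064, 0.014, -0.015 and 0.026. The widest of those 4 intervals, that of Brca1, ran from -0.17 to 0.23. Arrays of the 2 hairpins did not overlap in Smn1, Top1 and Nono (3 of 8, beside 21.9% of all genes). When an array was left out, the share of all genes called between hairpins ranged from 0.167% (without DHX9-1271 replicate 3) to 2.14% (without control replicate 2). Under other changes of the processing it ranged from 0.583% with no level filter to 4.11% with the filter at the median level.

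The complexes and pathways in which these partners act were described from 8 lists, which share some genes with each other. Of 8 tested NF45 and paraspeckle genes 2 rose and 0 fell over both hairpins, beside 8.13% of all genes up and 5.33% down. The list's median log2 fold change was 0.11, against 0.0011 over all genes. The 2 were Ilf2 and Zfr, which encodes a zinc finger protein that pairs with NF45. Zfr rose by 0.43 (SE 0.051, adjusted p = 0.00146), and was called with DHX9-1271 (0.39) and with DHX9-837 (0.46) alone. Pspc1, the third DBHS gene, was not called (0.069).

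Of 7 tested SMN complex genes, 2 rose and 0 fell over both hairpins (median 0.095), and 3 rose with DHX9-837 (Smn1, Strap and Gemin5). Beside these stand 8.13% of all genes up over both hairpins and 8.67% up with DHX9-837. Strap, which encodes a WD-repeat protein that associates with the complex, rose by 0.18 (SE 0.042, adjusted p = 0.028). Its call ended in 8 of 15 alternatives, and the list's count over both hairpins ranged from 1 to 3. Gemin5, whose product recognises the small nuclear RNAs, was called with DHX9-837 (0.29, adjusted p = 0.0223, lost in 4 of 16 alternatives) but not over both hairpins (adjusted p = 0.0718). Ddx20, Gemin4, Gemin6 and Gemin7 were not called, and Gemin2 and Gemin8 lay under the level filter.

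Among the 5 RecQ helicase genes, Wrn fell and Blm rose over both hairpins (median 0.018). Beside this and the list counts below stand 8.13% of all genes up and 5.33% down in that comparison. Blm, which encodes the helicase of Bloom syndrome in humans, had a log2 fold change of 0.32 over both hairpins (SE 0.064, adjusted p = 0.0124), and was called with each hairpin alone. None of the 10 genes of poly(ADP-ribose) metabolism was called in any comparison (median 0.021 over both hairpins). Of 9 topoisomerase genes and their cofactors 1 rose and 0 fell (median 0.085). It was Tdp1, which encodes the enzyme that removes trapped topoisomerase from DNA ends (0.30, SE 0.056, adjusted p = 0.00963). In the BRCA1 complexes 2 of 10 rose and 0 fell (median 0.10), Palb2 (0.23, adjusted p = 0.0291) and Brca2 (0.17, adjusted p = 0.0442). Palb2 joins BRCA1 to BRCA2 in homologous recombination. The call of Brca2 ended in all 14 alternatives and that of Palb2 in 7 of 14. The list's count was 0 to 1 in all 15 alternatives, whether an array was left out or the processing was changed.

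The list of other factors that prevent or resolve R-loops held the largest changes. Over both hairpins 5 of 18 tested genes rose and 0 fell (median 0.14). Ddx39b, the helicase of the TREX export complex, rose by 0.68 (SE 0.037, adjusted p = 4.36e-05), and Thoc1, a subunit of the THO complex that keeps nascent RNA off DNA, rose by 0.64 (SE 0.053, adjusted p = 0.000301). Ddx39b had a mean log2 level of 9.81 with DHX9-1271, 10.01 with DHX9-837 and 9.23 in control, and Thoc1 one of 8.05 with DHX9-1271, 7.76 with DHX9-837 and 7.26 in control. Ddx39b was higher with DHX9-837 and Thoc1 with DHX9-1271, but neither difference between hairpins was called (adjusted p = 0.0525 and adjusted p = 0.0542). Thoc2, another THO subunit, rose by 0.27 (adjusted p = 0.0161), as did Ercc5, the XPG nuclease, by 0.22 (adjusted p = 0.0186). The fifth was Srsf1 (0.18), named here after its value was seen. These counts stand beside 8.13% of all genes up over both hairpins. With DHX9-1271 alone 3 of the 18 rose, beside 2.83% of all genes, and with DHX9-837 alone 7 did, beside 8.67%. Among the 7 were Ddx21 (0.23) and Rnaseh2a (0.29), whose calls ended in 3 and 5 of 16 alternatives. Since the probes that make up each set are not given, Ddx39b cannot be told apart from near-identical copies.

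Of 19 other genes of DHX9-binding proteins 3 rose and 0 fell over both hairpins (median 0.016), beside 8.13% up and 5.33% down among all genes. With DHX9-837 alone 5 rose and 1 fell, beside 8.67% up and 6.91% down. Ago2, which carries small RNAs, rose by 0.29 (SE 0.052, adjusted p = 0.0079). Prmt1, the arginine methyltransferase that modifies DHX9, rose by 0.31 (SE 0.062, adjusted p = 0.0122). Hnrnpu, a nuclear matrix RNA-binding protein, rose by 0.15 (adjusted p = 0.0438), a call that ended in 11 of 15 alternatives. Nkrf, which binds DNA near NF-kB sites, was called with DHX9-837 alone (0.24, adjusted p = 0.0342), which also ended in 11 of 16. Mov10, an RNA helicase, was lower with DHX9-837 than with DHX9-1271 (-0.31, adjusted p = 0.048), a call that ended in 13 of 16 alternatives.

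**Figure D4:**
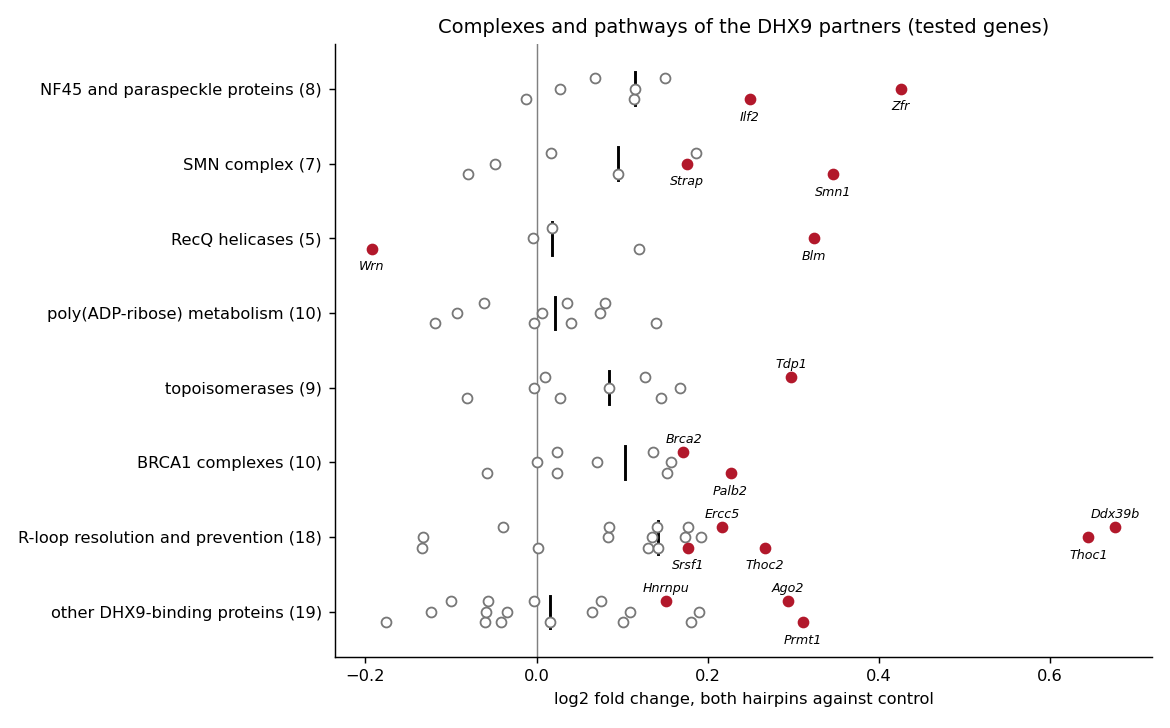
Log2 fold change (x axis) over both hairpins against control of the tested genes of 8 lists (rows, number of tested genes in brackets). Each circle is a gene, the black bar is the list's median and filled circles had an adjusted p under 0.05: Ddx39b and Thoc1 lie farthest right, and Wrn is the only filled circle left of 0.

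Some genes had patterns close to those of the called partners over the 9 arrays. Likeness was the root mean square difference in log2 level after each gene was centred on its own mean, over 14718 genes, and is given as a description. Closest to Ilf2 were Rif1 (0.023), which acts in replication timing and break repair, Txndc5 (0.031), an endoplasmic reticulum disulfide isomerase, and Larp4 (0.035), an mRNA-binding protein. Ilf2 itself departed from its mean by 0.14 on this measure. Closest to Smn1 were the lysosomal protease gene Lgmn (0.041), the chromatin-binding factor gene Banf1 (0.048) and Plekhh2 (0.05), where Smn1 departed from its mean by 0.21. Closest to Wrn were Pigm (0.031), the histone demethylase gene Kdm7a (0.036) and Rnf24 (0.038), where Wrn departed by 0.11. By limma Pigm, Kdm7a and Rnf24 were not called over both hairpins (adjusted p = 0.109, 0.0909 and 0.126). The genes named for Ilf2 and Smn1 were.

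Markers of dividing cells and of other cells of the gut wall moved in the same comparison. Whole tissue was measured, so a change in the number of cells of a type and a change in RNA per cell cannot be told apart. Among all genes 8.13% were called up and 5.33% down over both hairpins, the shares to set beside the counts below. Of 15 markers of proliferating cells 11 rose and 0 fell over both hairpins, and all 15 lay above the level filter. That list's mean log2 level was 8.38 to 8.42 with DHX9-1271, 8.4 to 8.51 with DHX9-837 and 7.91 to 8.21 in control. B and plasma cell markers had 5 of 9 up and 0 down, with list means of 8.35 to 8.85, 8.47 to 8.81 and 8.14 to 8.23 in the same order of groups. Macrophage markers had 4 of 7 up (7.86 to 8.03 with DHX9-1271, 8.08 to 8.12 with DHX9-837, 7.67 to 7.77 in control). Fibroblast markers had 4 of 8 up (9.26 to 9.35 with DHX9-1271, 9.21 to 9.34 with DHX9-837, 8.90 to 9.16 in control), and endothelial markers 4 of 7 (7.83 to 7.93, 7.78 to 7.86 and 7.59 to 7.67). Their part in the changes of Ilf2, Smn1 and Wrn was not tested. List means of T cells (7.09 to 7.36 over all arrays), smooth muscle (10.72 to 11.13) and enteric neurons and glia (5.46 to 5.73) overlapped between control and each hairpin group. Adipocyte markers stood higher with DHX9-837: 2 of 3 tested rose against control there (Fabp4 and Cidec), beside 8.67% of all genes. Between hairpins 1 was called (Fabp4), beside 1.9% of all genes. The adipocyte list mean was 6.17 to 6.54 with DHX9-1271, 6.91 to 7.19 with DHX9-837 and 6.33 to 6.87 in control. Adipoq and Lep lay under the level filter. The part of adipocytes in the levels of Smn1 and Ilf2 with DHX9-837 was not tested.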

How the data were processed

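RMA and oligo 1.30.0 under R 3.1.1 gave the log2 levels that the authors deposited, as the submitters' processing notes record: 24973 probe sets by 9 arrays. Because RMA gives every array the same distribution, a shift shared by most transcripts would not be seen. The probe set identifiers of Dhx9 and the 8 genes equal their Entrez Gene numbers, with 1 probe set per gene. The sources used here do not give the probes that make up each set or the genome build. The platform annotation gave 1 symbol to 24015 probe sets, and 958 were unnamed. The brightest probe set per symbol was kept (24011 genes), and genes with a mean level under the 30th percentile (5.28) were left out.

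Limma 3.58.1 in R 4.3.3 fitted group means over all 9 arrays with 4 contrasts and empirical Bayes moderation, and its p-values (two-sided) were adjusted over 16808 genes by the method of Benjamini and Hochberg. For both hairpins, their group means were averaged before the control mean was subtracted. Precision is limited by the number of arrays.

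The 8 genes and all lists (8 of pathways, 11 of markers) were chosen with earlier results of these data known, and some genes of these pathways are not reported here. From each pathway list, up to 4 genes called over both hairpins and 2 called otherwise were named, by smallest p. For each of the 8 called over both hairpins, the 3 genes of closest pattern were named, leaving out predicted genes, clones, small RNAs and antigen receptor segments. Alternatives covered the level filter, centring, cyclic loess, trend and robust moderation, a fit of the compared arrays only, a block for the replicate number, and leaving out each array. Figures used matplotlib 3.10.9 in Python 3.11.15.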

Additional observations from a re-analysis of the deposited data

How the results depend on the processing

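Apart from Brca1, the partner genes and Dhx9 were refitted under 16 alternatives, or 15 over both hairpins. There a fit of only the arrays compared repeats the reported one. Brca1 lay under the filter at the median level, so it had 15 alternatives, or 14 over both hairpins. Smn1 kept its calls over both hairpins (log2 fold change 0.28 to 0.38) and with DHX9-837 (0.41 to 0.51) in all alternatives. Dhx9 kept its calls against control likewise. Ilf2 with DHX9-837 was not called with only the arrays compared (adjusted p = 0.0634), without control replicate 1 (0.0602) or without control replicate 2 (0.054). Wrn with DHX9-837 was called in 4 alternatives. The number of the 8 called with DHX9-837 was 1 with only the arrays compared and 1 to 2 when an array was left out. That number was 3, with Wrn added, under the filter at the median level, cyclic loess, or trend and robust moderation. Over both hairpins the number was 1 to 2 when an array was left out and 2 to 3 under other changes. The cause was not tested.

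Small, uncalled differences changed sign when an array was left out: Nono with DHX9-1271 (-0.016 to 0.15), Top1 over both hairpins (-0.036 to 0.029), and DHX9-837 minus DHX9-1271 for Dhx9 (-0.042 to 0.0021), Sfpq (-0.030 to 0.036) and Brca1 (-0.068 to 0.10).

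Of all genes, 741 were called with DHX9-1271 as reported, 408 with no level filter, 336 with only the arrays compared and 128 to 714 when an array was left out. With cyclic loess 422 rose and 366 fell there, against 475 and 266 as reported. With DHX9-837, 1674 were called with only the arrays compared, against 2618, and over both hairpins 1363 to 2066 when an array was left out, against 2263. Between hairpins 320 were called as reported, 140 with no level filter, 493 with the filter at the median, 554 with trend and robust moderation and 28 to 360 when an array was left out.

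No pairing of the samples by replicate number was seen, which does not exclude one. Deviations of same-numbered arrays correlated at -0.37 to 0.26, those of other arrays at -0.44 to 0.39, and 1 of 9 arrays correlated best with its own number in both other groups. With the number as a replicate block 407 genes were called with DHX9-1271 and 168 between hairpins, and the call of Wrn over both hairpins ended (adjusted p = 0.0543).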
